A study of Mus musculus with 9 samples.

Results

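Epididymal white fat (epiAT) of male C57BL/6J mice fed chow was compared at 39 weeks (CCC) and at 26 weeks (CC) by snRNA-seq, with 1 library of 5 pooled mice at each age. The barcodes compared were those of the CCC and CC libraries with 500 to 3000 detected genes and at most 40000 unique molecular identifiers (UMIs). They numbered 5771 in CCC and 4144 in CC, or 9915 of the 76356 barcodes within these limits in all 9 libraries of the series. The study followed obesity and weight loss in mice, and the libraries compared here were its lean controls. Neither group carried a transgene or received a high-fat diet (HFD). The labels call the diet chow throughout, whereas the methods of the study describe a low-fat control diet for 12 weeks (CC) or 25 weeks (CCC) followed by 8 weeks of standard chow, so that age and time on the low-fat diet cannot be told apart. Values of 3 further libraries stand beside some results: C (18 weeks, chow), HC (26 weeks, 12 weeks of HFD and then 8 weeks of chow) and HHC (39 weeks, 25 weeks of HFD and then 8 weeks of chow). With 1 library on each side there was no replicate check and no test. All intervals are 95% intervals that cover counting error only, and a difference between the libraries may come from age, from the 5 mice in each pool or from the handling of a library, which cannot be told apart.

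White fat stores energy as triglyceride in large adipocytes, which also secrete hormones such as leptin and adiponectin. Around them lie adipocyte progenitor cells (APCs) that lay down collagen, macrophages that clear lipid and dead cells, blood and lymphatic vessels, and a mesothelial sheet that covers the depot. In males the depot adjoins the epididymis, so epithelial nuclei of that organ can be carried along. In snRNA-seq, RNA set free from broken cells can be captured with a nucleus, so that abundant transcripts of one cell type can be counted in another. A gene's level is given here as CPM, its UMIs summed over a class of nuclei and scaled to the same total of UMIs in every library, with mitochondrial genes and Malat1 left out of the total. A gene was called higher or lower where its log2 ratio of CPM, CCC over CC, was past 2-fold.

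The libraries differed in depth before any cell type was considered. CC held 5173 deposited barcodes with 31387832 UMIs, and CCC held 6786 barcodes with 22599619 UMIs. After removal of called doublets, 4007 nuclei of CC and 5505 of CCC remained, with medians of 3046 and 2067 UMIs. The distribution of UMIs per nucleus in CCC was nearly flat at low counts, with no clear divide from the main peak. Once smoothed, its density was 0.933 in a very shallow trough at 1220 UMIs, against 0.964 at most to the left. The main peak stood at 1.615. The limit was set at that trough. Below that limit lay 1503 of 5505 CCC nuclei, or 27.3% (26.1 to 28.5, Clopper-Pearson), against 109 of 4007 CC nuclei, or 2.72% (2.24 to 3.27). In C, the chow library of 18 weeks, 2355 of 11185 nuclei (21.1%) lay below it, so that CC had the lowest part of the 3 chow libraries, and in HC and HHC 4.06% and 11.8% did. The low-count nuclei of CCC had a median of 879 UMIs and 699 genes.

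**Figure D1:**
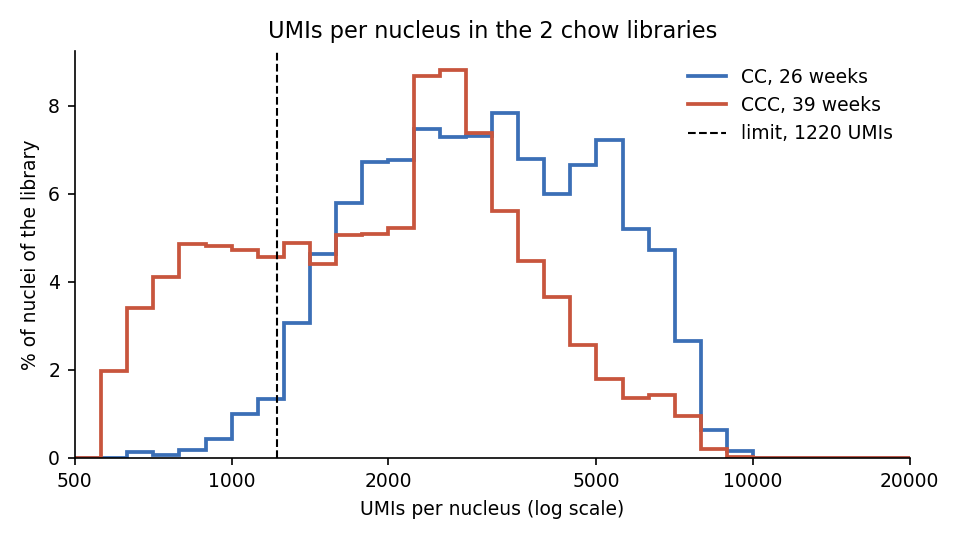
UMIs per nucleus (x axis, log scale) as a percentage of the kept nuclei of each library (y axis), for CC at 26 weeks and CCC at 39 weeks; the dashed line marks the limit of 1220 UMIs. Left of the line lie 27.3% of the nuclei of CCC against 2.72% in CC, and the CCC distribution is nearly flat around the line.

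The low-count nuclei of CCC carried markers of every class. Summed marker levels in them were 3931 CPM for adipocytes, 1610 for progenitors, 1433 for macrophages and 1137 for endothelial cells, beside 4567, 1779, 1571 and 812 CPM in all CCC nuclei above the limit. T or NK cell markers stood further apart, at 392 against 146 CPM, as did lymphatic endothelial markers, at 184 against 79.8 CPM. Their summed profile correlated at r = 0.968 with that of all nuclei above the limit (across 11085 genes of the same library, as a description), more than with any single class, of which endothelial-like nuclei came nearest at 0.891. Mitochondrial genes took 2.33% of their UMIs against 1.44% above the limit, and a list of 12 ribosomal and translation genes, mature transcripts that are mostly cytoplasmic, stood at 2135 against 1358 CPM. The low-count nuclei were left out of what follows. Above the limit, 4002 CCC nuclei with a median of 2570.5 UMIs and 3898 CC nuclei with a median of 3122 UMIs remained.

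Nuclei of both libraries were clustered together with those of C, HC and HHC, and clusters were named from marker genes. The names hold only where a cluster carried its own markers above the level in the low-count nuclei of both CC and CCC. By this check, added after the data were seen, 2 epithelial clusters and 1 macrophage cluster lost their names. Unnamed nuclei made up 8.65% of CC and 18.4% of CCC, a gap that limits every share given below.

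Progenitor-like nuclei made up a smaller share of CCC than of CC. They were 868 of 3898 nuclei in CC, or 22.3% (21.0 to 23.6), and 599 of 4002 in CCC, or 14.97% (13.9 to 16.1), a difference of -7.30 percentage points (-9.03 to -5.57). Macrophage-like nuclei went from 11.2% to 7.02%, a difference of -4.22 points, and mesothelial-like nuclei from 8.06% to 4.70%, a difference of -3.36 points. These 3 differences kept their sign under each alternative tried. Adipocyte-like nuclei made up 24.2% (22.9 to 25.6) of CC and 23.9% (22.6 to 25.3) of CCC, and the interval of that difference, -2.18 to 1.62 points, spans 0. This last value rested on the clustering: the difference was 15.6 points without correction for library and -5.57 points with CCC and CC clustered alone.

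Endothelial-like nuclei made up 6.31% of CC and 13.3% of CCC, a difference of 6.96 points that turned to -2.65 points without correction for library. The largest cluster of this class held a like part of it in both libraries (383 of 531 CCC nuclei, 179 of 246 CC nuclei), and there the endothelial markers summed to 3670 CPM in CCC against 5384 in CC and the progenitor markers to 2112 against 992 CPM. In the next largest, with 113 CCC and 45 CC nuclei, the endothelial markers summed to 6571 and 6773 CPM. Smooth muscle or pericyte-like nuclei went from 1.41% to 3.35%, and in this class too the markers were lower in CCC, at 2709 against 3671 CPM. The difference lay mostly in 1 cluster, with 16 CC and 82 CCC nuclei against 39 and 52 in the others, whose smooth muscle or pericyte markers (1313 and 1237 CPM) were below its adipocyte marker sums (4839 and 4364 CPM). It was 0.28 points without correction for library and 0.71 points at a limit of 2500 UMIs. Epithelial-like nuclei made up 12.9% and 10.9%, and the sign of that difference changed with the limit on UMIs. Among the smaller classes, lymphatic endothelial-like nuclei numbered 70 in CC and 27 in CCC, T or NK cell-like nuclei 75 and 48, B cell-like nuclei 26 and 47, and dendritic cell-like nuclei 24 and 18. In CC, T or NK cell-like nuclei held 5203 CPM of adipocyte markers against 3313 of their own, and B cell-like nuclei 3899 against 2709 CPM. In CCC these sums were 1698 against 6736 CPM and 871 against 10239 CPM.

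**Figure D2:**
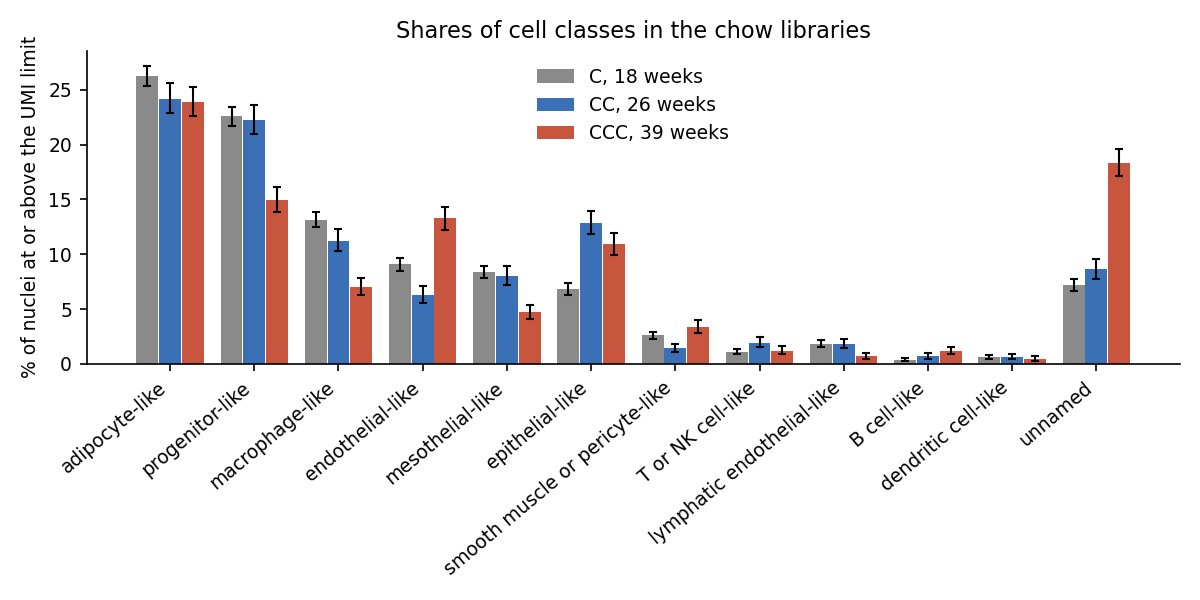
Share of each class (y axis, % of nuclei at or above the UMI limit) in C (18 weeks), CC (26 weeks) and CCC (39 weeks), 1 library each; bars start at 0 and error bars are 95% Clopper-Pearson intervals. The progenitor-like share was 22.3% in CC and 14.97% in CCC, and the adipocyte-like share 24.2% and 23.9%.

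Adipocyte-like nuclei fell into 3 clusters that the libraries filled unequally. The first held 735 of the 944 CC nuclei and 269 of the 958 CCC nuclei. Its nuclei had a median of 5359 UMIs in CC and 2643 in CCC, with macrophage markers at 577 and 921 CPM. The part of these gaps in values read within this cluster was not tested. The second held 208 and 380, and in CC its nuclei had a median of 1645 UMIs with 3.93% mitochondrial UMIs, against 2621 UMIs and 1.01% in CCC. The third held 309 CCC nuclei and 1 CC nucleus, and none of C, HC or HHC. With a median of 5907 UMIs and 0.0718% mitochondrial UMIs, the third cluster held the deepest adipocyte nuclei of CCC, and its levels of other classes' markers were low (212 CPM for progenitor markers against 783 in the first cluster). All 3 carried the adipocyte markers at a high level in CCC, at 10017, 7772 and 10879 CPM. A cluster filled by 1 library may be that library rather than a cell state, so the 10 genes named by rule and the lists of adipokines, lipid synthesis, uptake, lipolysis and insulin signalling were also read within clusters, and the other genes are given over adipocyte-like nuclei as a whole.

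Across all adipocyte-like nuclei, 10111 genes had enough UMIs to be compared. Of these, 667 were over 2-fold higher in CCC (6.6% of the genes compared) and 82 over 2-fold lower (0.811%). The median log2 ratio over all compared genes was 0.14. Scaling by the trimmed mean of M values (TMM) in place of total UMIs lowers each log2 ratio by 0.20 in these nuclei, which left 428 genes higher and 166 lower. The count of higher genes was 1687 without correction for library and 344 with CCC and CC clustered alone, and that of lower genes 207 with no upper limit on genes.

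The gene with the clearest excess in 39-week adipocytes was Trdn (chr10:33080554-33476709, GRCm38, plus strand), which encodes triadin, a membrane protein of the calcium-release complex of striated muscle. It was counted 23 times in CC, at 5.51 CPM (3.49 to 8.27), and 586 times in CCC, at 176 CPM (162 to 191), a log2 ratio of 5.00 (4.40 to 5.67). The excess was present in both clusters that CC filled: Trdn stood at 5.34 CPM in CC and 243 CPM in CCC within the first cluster, at 7.11 and 191 CPM within the second, and at 138 CPM in the third. Trdn was among the leading genes of the second and the third clusters, so it helped to define them, but not the first. At 18 weeks its level was 0.34 CPM. It was also counted in endothelial-like nuclei of CCC, at 52.3 CPM against 1.16 CPM in CC. Over all nuclei above the limit Trdn stood at 4.18 CPM in CC and 83.6 CPM in CCC, and in low-count nuclei at 0 and 87.3 CPM. The endothelial-like nuclei held adipocyte markers at 3610 CPM in CC and 3261 CPM in CCC, whose part in the Trdn value was not tested.

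Other genes with a large excess in CCC adipocytes encode a channel partner, a receptor and a secreted protein. Pex5l, whose product binds pacemaker channel subunits, stood at 5.99 CPM in CC and 80.9 CPM in CCC (log2 ratio 3.75, 3.16 to 4.41). Mrc2, the endocytic collagen receptor Endo180, stood at 20.1 and 121 CPM (2.59, 2.25 to 2.95). Both were higher in CCC within each cluster that CC filled. Mrc2 was not particular to adipocytes, at 137 and 190 CPM in progenitor-like nuclei and 49.6 and 97.5 CPM over all nuclei above the limit. In low-count nuclei it stood at 18.9 and 95.3 CPM. Vwc2l, a secreted von Willebrand factor C domain protein, stood at 2.40 and 21.9 CPM (3.20, 2.24 to 4.31). Csprs went from 3 to 109 UMIs, a log2 ratio of 5.51 (3.93 to 7.81), but it lies on an unplaced scaffold and belongs to a repeated gene family, so the assignment of its reads is uncertain.

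Genes that were lower in CCC adipocytes included an adhesion molecule, a secreted ligand and enzymes. Ncam2, a neural cell adhesion molecule, stood at 45.1 and 5.41 CPM (-3.06, -3.84 to -2.36). Angpt1, the ligand that keeps the endothelial Tie2 receptor active, stood at 396 and 91.7 CPM (-2.11, -2.29 to -1.93). At 18 weeks Ncam2 and Angpt1 were higher than at either later age, at 117 and 1485 CPM, although C was a library of another set.

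Cyp2e1, a cytochrome P450 that oxidises ethanol, acetone and fatty acids, stood at 859 CPM in CC and 243 CPM in CCC (-1.82, -1.93 to -1.71), and at 1886 CPM in C. Adam12, a membrane metalloproteinase, stood at 418 and 115 CPM (-1.86, -2.02 to -1.70). Ces1f, a carboxylesterase of a family of close paralogues, stood at 84.1 and 21.0 CPM (-2.00, -2.39 to -1.63). All 10 adipocyte genes named here stayed past 2-fold in the same direction under every alternative tried.

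**Figure D3:**
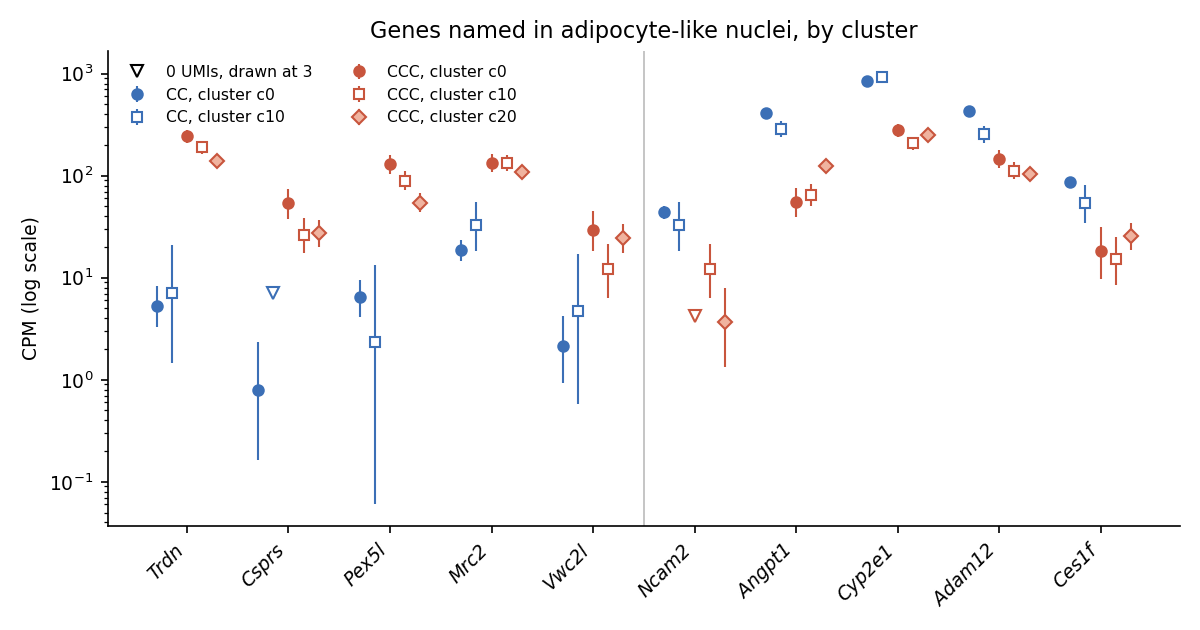
CPM (y axis, log scale) of the 10 genes named in adipocyte-like nuclei, by cluster, with 95% Poisson intervals from UMI counts; blue is CC, red is CCC, and triangles stand for 0 UMIs drawn at the level of 3. Within cluster c0 no interval of CC overlaps that of CCC; within cluster c10, where CC has few UMIs, those of Vwc2l and Ncam2 do.

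Genes of lipid storage were read as lists beside all genes compared. Of 10 genes of de novo fatty acid synthesis, none was higher and 1 was over 2-fold lower in CCC, beside 6.6% and 0.811% of all genes compared. All 10 had a log2 ratio of 0 or less (median -0.40). The gene that passed was Scd1, the stearoyl-CoA desaturase, at 1641 CPM in CC and 611 CPM in CCC (-1.43, -1.499 to -1.35), and at 772 CPM in C. Within the clusters, Scd1 stood at 1427 and 3546 CPM in CC and between 522 and 770 CPM in CCC. Acaca, which makes malonyl-CoA, stood at 1088 and 719 CPM (-0.60, -0.67 to -0.52), and Fasn at 127 and 102 CPM (-0.31). Thrsp, a regulator of lipid synthesis, was past 2-fold lower within the second cluster (-1.07).

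None of the 7 triglyceride synthesis genes, 8 fatty acid uptake genes or 10 insulin signalling genes was past 2-fold in either direction. Of all genes compared, 6.6% were over 2-fold higher and 0.811% lower. The genes of these lists had medians of -0.10, -0.27 and -0.25 over all adipocyte-like nuclei. Within the first cluster 3 of them were past 2-fold lower, namely Gpam (-1.01), Pik3r1, a regulatory subunit of PI3-kinase, at 1432 and 663 CPM (-1.11), and Pde3b, at 2959 and 1273 CPM (-1.22). Within the second, Cavin1, a caveolar coat protein, was lower, at 476 and 167 CPM (-1.51). Gpd1, which supplies the glycerol backbone, stood at 63.0 and 108 CPM (0.78), whereas Gpam, the acyltransferase of the first step, stood at 290 and 172 CPM (-0.75). Of 8 lipolysis genes, 1 was over 2-fold higher, beside 6.6% of all genes compared. This was G0s2, an inhibitor of the triglyceride lipase ATGL, at 140 CPM in CC and 300 CPM in CCC (1.10, 0.95 to 1.25), and it was higher in each cluster (134 and 192 CPM in CC, 249 to 396 CPM in CCC), though with TMM scaling the log2 ratio was 0.90. Plin1, the coat protein of lipid droplets, stood at 674 and 911 CPM (0.43), and Pde3b, through which insulin restrains lipolysis, at 2872 and 1702 CPM (-0.75). Pnpla2, encoding ATGL itself, was past 2-fold lower within the second cluster alone (-1.03).

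Secreted products of adipocytes differed in direction. Among 6 adipokines compared, 1 was over 2-fold lower and none higher, beside 0.811% and 6.6% of all genes compared. Cfd (adipsin), a complement protease, stood at 566 CPM in CC and 160 CPM in CCC (-1.83, -1.96 to -1.69). Lep, encoding leptin, stood at 298 and 482 CPM (0.69, 0.58 to 0.80), and Adipoq, encoding adiponectin, at 310 and 189 CPM (-0.71, -0.85 to -0.58). Both were within 2-fold, with Lep higher and Adipoq lower at 39 weeks, though within the second cluster Adipoq (-1.32) and Retn, encoding resistin (-1.04), were past 2-fold lower. Of 10 genes for VEGF and angiopoietin ligands and receptors, 2 were higher and 1 lower, beside 6.6% and 0.811% of all genes compared. Higher were Vegfc, the lymphatic growth factor, at 10.8 and 37.3 CPM (1.79, 1.29 to 2.32), and Angpt2, an antagonist of Angpt1 at its receptor, at 10.3 and 20.7 CPM (1.01, 0.44 to 1.59). Angpt1 itself was lower, as given above. Angpt2 rested on the edge of 2-fold, at 0.81 with TMM scaling. Vegfa stood at 389 and 407 CPM (0.06, and -0.13 with TMM scaling).

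Of 16 collagen chain genes, 14 had a positive log2 ratio in adipocyte-like nuclei and 2 were over 2-fold higher, with a median of 0.51 against 0.14 for all genes. Those past 2-fold were Col12a1, at 3.12 and 19.2 CPM (2.63, 1.75 to 3.61), and Col8a1, at 5.75 and 19.5 CPM (1.76, 1.07 to 2.505). Of 13 genes for matrix and crosslinking, 2 were higher, Thbs1 at 9.83 and 28.3 CPM (1.52, 0.98 to 2.09) and Mmp14 at 10.1 and 20.1 CPM (1.00, 0.42 to 1.59, and 0.80 with TMM scaling), beside 6.6% of all genes compared in these nuclei. Col8a1 and Mmp14 were within 2-fold without the second cluster (0.60 and 0.74). The progenitor markers, which include Col1a1, stood at 642 CPM in CC and 606 CPM in CCC adipocyte-like nuclei, with all 10 detected in both. Within the first cluster they went from 582 to 783 CPM and within the second from 1187 to 1137 CPM, and their part in the collagen and matrix values was not tested.

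Lists of regulators were read in the same way. All 5 growth hormone axis genes compared had a positive log2 ratio, with a median of 0.76 against 0.14 for all genes. Of these, 1 was over 2-fold higher, beside 6.6% of all genes compared. Cish, a target and brake of growth hormone signalling, stood at 3.12 CPM in CC and 14.1 CPM in CCC (2.18, 1.27 to 3.19), and at 196 CPM in C. Igf1, another target of that hormone, stood at 186 and 342 CPM (0.88, 0.74 to 1.01), with 1934 CPM in C, while Ghr, the receptor, stood at 11103 and 11584 CPM (0.06, and -0.14 with TMM scaling). Of 10 adipogenic transcription factors, 1 was lower, beside 0.811% of all genes compared. This was Rxra, the partner of PPARγ on DNA, at 132 and 55.3 CPM (-1.25, -1.501 to -1.01). Pparg stood at 4483 and 3522 CPM (-0.35). Of 17 circadian clock genes, 2 were higher, beside 6.6% of all genes compared: Bhlhe41 at 5.27 and 16.5 CPM (1.65) and Dbp at 8.87 and 18.9 CPM (1.10, and 0.90 with TMM scaling). The hour of tissue collection is not given in the sources used here. Of 16 senescence genes, 9 had too few UMIs to be compared. None of the 7 compared was past 2-fold, beside 6.6% higher and 0.811% lower of all genes compared. Cdkn1a, encoding p21, stood at 6.71 and 10.8 CPM (0.69, -0.06 to 1.46).

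Macrophage transcripts in adipocyte-like nuclei were also higher in CCC. Of 3 genes of lipid-associated macrophages (LAMs) compared, 2 were past 2-fold, beside 6.6% of all genes compared in these nuclei. They were Mmp12 at 6.23 and 38.5 CPM (2.63) and Gpnmb at 6.71 and 22.9 CPM (1.77). The 9 macrophage markers, all detected in both libraries, summed to 614 CPM in CC and 798 CPM in CCC adipocyte-like nuclei, and their part in those values was not tested.

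**Figure D4:**
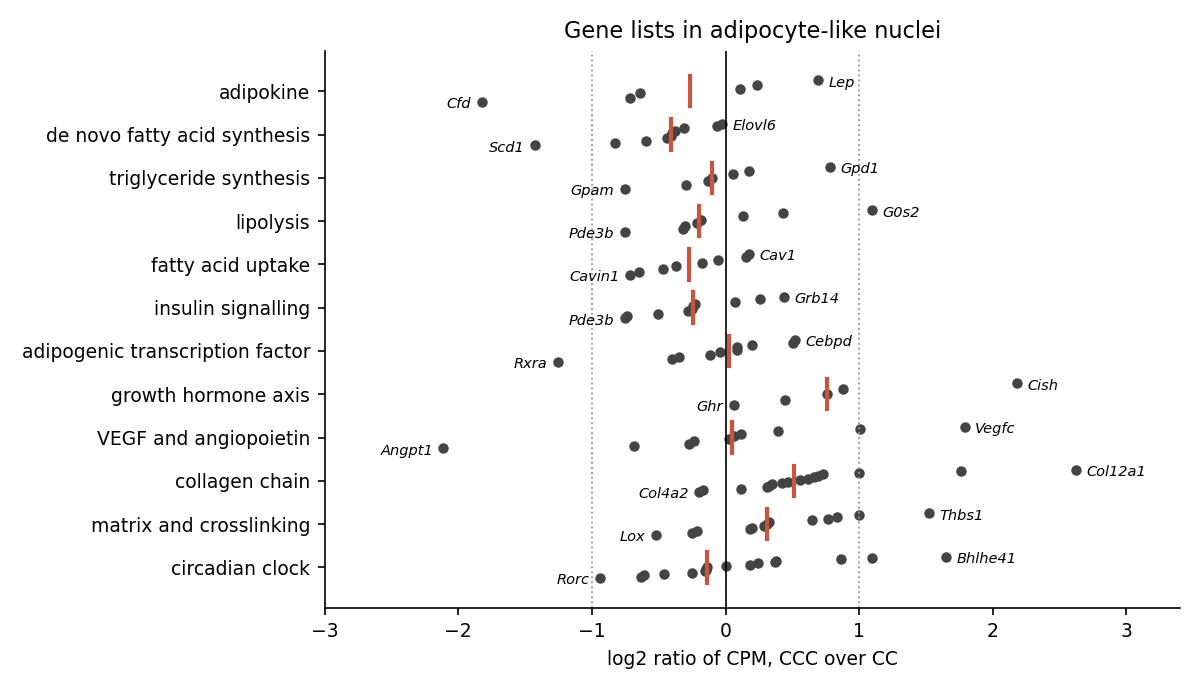
Log2 ratio of CPM, CCC over CC (x axis), of the members of 12 gene lists in adipocyte-like nuclei; each dot is a gene, red bars are list medians, and dotted lines mark 2-fold. De novo fatty acid synthesis has its median at -0.40 with Scd1 lowest, and collagen chains have theirs at 0.51 with Col12a1 highest.

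Adipocyte transcripts were counted in every other class, and at a lower level in CCC. The 10 adipocyte markers, all detected in each class given here, summed to 2926 CPM in progenitor-like nuclei of CC and 831 CPM in those of CCC, to 2916 and 889 CPM in macrophage-like nuclei, and to 2829 and 839 CPM in the epithelial cluster compared. The gap was smaller in mesothelial-like nuclei (2881 and 1890 CPM) and in endothelial-like nuclei (3610 and 3261 CPM). Within adipocyte-like nuclei the sums were 10535 and 9778 CPM. Lower levels of adipocyte genes in the other classes of CCC moved with these sums, whose part in them was not tested. Gm42418, a row that collects ribosomal RNA reads, ran from 59142 to 112963 CPM in the classes of CC and from 17538 to 38362 CPM in those of CCC.

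Cdk8, a kinase of the Mediator complex, was over 2-fold lower in CCC in all 6 classes compared, and stood at 1597 CPM in CC and 429 CPM in CCC adipocyte-like nuclei. In C, where Cdk8 ran at 676 CPM in progenitor-like and 222 CPM in mesothelial-like nuclei, its level was below that of CC, and below that of CCC. Gm42418 was lower in CCC in the same classes. The log2 ratios were -2.61 for Cdk8 and -1.31 for Gm42418 in mesothelial-like nuclei, and -1.30 and -1.95 in the epithelial cluster compared. Across C, HHC, CCC, HC and CC, both rows rose in the same order in mesothelial-like nuclei. Cdk8 stood there at 222, 310, 411, 2065 and 2513 CPM, and Gm42418 at 4916, 13957, 29767, 70740 and 73723 CPM. A link between the levels of these rows was not tested.

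In progenitor-like nuclei 7811 genes were compared, of which 130 (1.66%) were over 2-fold higher and 421 (5.39%) lower in CCC. Among the lower ones were genes of adipocytes: all 6 adipokines and all 8 fatty acid uptake genes compared were past 2-fold, with Cfd at 648 and 104 CPM (-2.64), Pparg at 1075 and 222 CPM (-2.27) and Cyp2e1 at 421 and 39.7 CPM (-3.41). These moved with the adipocyte marker sum given above. The 10 progenitor markers went from 4412 to 6305 CPM in the same nuclei. Of 15 collagen chain genes compared, 13 had a positive log2 ratio, with a median of 0.33 against 0.08 for all genes, and 1 was past 2-fold. The part of the progenitor marker sum in these values was not tested. Col3a1 stood at 365 and 643 CPM (0.82, 0.69 to 0.95) and Dcn, encoding the collagen-binding proteoglycan decorin, at 1308 and 2038 CPM (0.64, 0.57 to 0.71). Pi16, a marker of the most immature progenitors, stood at 132 and 240 CPM (0.86, 0.64 to 1.08), and Dpp4, another, at 161 and 190 CPM (0.24).

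The genes with the clearest excess in CCC progenitors included 3 antisense transcripts. Egfros, opposite Egfr, stood at 15.6 and 136 CPM (3.12, 2.63 to 3.64), Pard3bos1 at 13.7 and 62.5 CPM (2.19) and Sox5os4 at 22.0 and 88.0 CPM (1.998). Whether strand was used in counting is not given in the sources used here, so reads of these genes and of the genes opposite them may not be told apart. Apod, a lipocalin that carries lipids, stood at 8.73 and 43.0 CPM (2.30, 1.60 to 3.05), Insyn2a, an inhibitory synapse protein, at 8.35 and 34.5 CPM (2.05), and Ctnna3, a catenin of cell junctions, at 34.9 and 107 CPM (1.61).

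Lower in CCC progenitors, besides Cdk8, were Ptch1, Hhip, Sntg1, Cox4i1 and Uqcr11. Ptch1, the hedgehog receptor and target gene, stood at 147 CPM in CC and 54.7 CPM in CCC (-1.42, -1.78 to -1.08). Hhip, a decoy receptor for hedgehog ligands, stood at 23.9 and 4.56 CPM (-2.39, -3.76 to -1.26), a value that turned to 0.33 once low-count nuclei were clustered with the rest. In C, Ptch1 stood at 50.6 CPM and Hhip at 13.3 CPM, so the level of CC was the highest of the 3 chow libraries for both. Sntg1, a syntrophin, stood at 340 and 132 CPM (-1.37), and Cox4i1 and Uqcr11, subunits of respiratory complexes, at 85.4 and 28.0 CPM (-1.61) and at 40.2 and 11.7 CPM (-1.78). In C, HC and HHC, Cox4i1 stood at 30.9, 37.8 and 63.8 CPM and Uqcr11 at 7.74, 11.3 and 17.8 CPM, all below CC. The translation list went from 874 CPM in CC to 638 CPM in CCC progenitor-like nuclei, and its part in these values was not tested.

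In macrophage-like nuclei 4827 genes were compared, with 85 (1.76%) higher and 421 (8.72%) lower in CCC. The counts were 34 and 207 at a limit of 2500 UMIs, 55 genes were higher with TMM scaling and 48 with median ratio scaling, and 238 were lower with cluster names unchecked. The antigen-presentation genes of MHC class II were higher: of 5 compared, 4 were past 2-fold. H2-Ab1 stood at 60.4 CPM in CC and 141 CPM in CCC (1.22, 0.77 to 1.67), H2-Aa at 109 and 252 CPM (1.21, 0.88 to 1.54), Cd74, the invariant chain, at 132 and 302 CPM (1.19, 0.90 to 1.49) and H2-Eb1 at 91.0 and 190 CPM (1.06, 0.69 to 1.44, and 0.97 with TMM scaling). Ciita, the transactivator of these genes, stood at 175 and 252 CPM (0.53, 0.23 to 0.82). With only nuclei of at least 2500 UMIs, the log2 ratios of the 4 genes were between 0.59 and 1.00, none past 2-fold. The rise was not confined to macrophages: 2 of 4 of these genes were past 2-fold higher in endothelial-like nuclei (median 1.06), beside 6.02% of all genes there. In adipocyte-like nuclei all 6 compared were positive but within 2-fold (median 0.41). The medians were -0.46 in progenitor-like, -0.03 in mesothelial-like (1 gene) and -0.14 in epithelial-like nuclei. Dendritic cell markers summed to 600 CPM in CC and 704 CPM in CCC macrophage-like nuclei, and B cell markers to 640 and 867 CPM, with Cd79a and Fcrla at 0 in both. Their part in these values was not tested.

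Perivascular macrophage genes stayed within 2-fold for all 8 members, with a median of 0.41, while the 9 macrophage markers went from 9398 to 12661 CPM in these nuclei. Mrc1 (CD206) stood at 2212 and 3213 CPM (0.54) and Lyve1 at 73.9 and 99.7 CPM (0.43, -0.04 to 0.90). Of the LAM genes, 1 had enough UMIs to be compared, Atp6v0d2, a subunit of the proton pump of lysosomes, at 8.21 and 110 CPM (3.75, 2.83 to 4.81). Its level was far below the 939 and 1222 CPM of HC and HHC. Lipa, the lysosomal acid lipase, stood at 44.8 and 92.2 CPM (1.04, 0.50 to 1.58, and 0.95 with TMM scaling). The macrophage cluster whose leading genes include Spp1, Itgax and Mmp12 lost its name by the check above and is not part of these counts.

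Ifi202b (chr1:173962568-173982744, minus strand), an interferon-inducible gene of a family of close paralogues, was counted 8 times in CC macrophage-like nuclei, at 5.97 CPM (2.58 to 11.8), and 116 times in CCC, at 175 CPM (145 to 210), a log2 ratio of 4.88 (3.85 to 6.12). In C it stood at 4.29 CPM, in HC at 3.16 CPM and in HHC at 7.67 CPM, so that among these 5 libraries the high level was that of CCC alone. Adap2os, an antisense transcript, stood at 30.6 and 144 CPM (2.23) and St18, a zinc-finger factor, at 28.4 and 99.7 CPM (1.81). Lower were Kcnip4, a partner of potassium channels, at 54.5 and 6.05 CPM (-3.17, -5.09 to -1.75), C6, a complement component, at 73.1 and 15.1 CPM (-2.27), Ptges3, a co-chaperone, at 67.9 and 25.7 CPM (-1.40) and Calr, encoding calreticulin, at 56.7 and 24.2 CPM (-1.23, and 0.051 with cluster names unchecked). The translation list went from 822 to 530 CPM in these nuclei, and its part in these values was not tested. Adipocyte genes were again among the lower ones, where 4 of 5 adipokines and 8 of 9 de novo fatty acid synthesis genes were past 2-fold, beside 8.72% of all genes. The adipocyte markers summed to 2916 CPM in CC and 889 CPM in CCC macrophage-like nuclei, and their part was not tested.

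In endothelial-like nuclei 6612 genes were compared, with 398 (6.02%) higher and 70 (1.06%) lower in CCC. Markers of several other cell types were higher in CCC in this class: progenitor markers summed to 945 and 1907 CPM, smooth muscle or pericyte markers to 1037 and 1862 CPM, and macrophage markers to 774 and 1251 CPM. The endothelial markers summed to 5681 and 4406 CPM. Adipocyte (3610 and 3261 CPM), dendritic cell (281 and 220 CPM) and lymphatic endothelial markers (60.3 and 51.5 CPM) were lower too. The translation list stood at 2775 and 4599 CPM and haemoglobin genes at 1546 and 2370 CPM. Their part in the counts was not tested. Without the largest cluster, 106 genes were higher and 35 lower. With TMM scaling the counts were 199 and 146, and without correction for library 78 and 116, so that the balance of higher and lower genes rested on the setting.

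Bgn, encoding the matrix proteoglycan biglycan, stood at 47.6 and 229 CPM in endothelial-like nuclei (2.27, 1.79 to 2.78), and H2-T23, a non-classical MHC class I gene of a family of close paralogues, at 23.2 and 120 CPM (2.38, 1.70 to 3.13). Plvap, a protein of the diaphragms of fenestrated capillaries, stood at 37.1 and 171 CPM (2.20, 1.66 to 2.79), and Plxnb2, a semaphorin receptor, at 10.4 and 65.6 CPM (2.65). Among lists, 5 of 12 complement genes were higher and 1, Cfd, lower, and 4 of 9 matrix genes and 3 of 14 collagen chains were higher, beside 6.02% of all genes. The complement genes summed to 2022 CPM in CC and 1677 CPM in CCC, a sum that Cfd led at 1266 and 452 CPM. Lower were Ccdc85a, at 1122 and 283 CPM (-1.99, -2.17 to -1.81), and Vwa3a and Nr5a2, whose log2 ratios of -2.11 and -2.18 turned to 0.37 and 0.84 without the largest cluster.

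In mesothelial-like nuclei 4226 genes were compared, with 56 (1.33%) higher and 56 (1.33%) lower, or 25 and 90 with TMM scaling. Wdr17 (chr8:54629055-54887184, minus strand), a WD-repeat gene, was counted 427 times in CC, at 470 CPM (426 to 516), and 1037 times in CCC, at 2061 CPM (1937 to 2190), a log2 ratio of 2.13 (1.97 to 2.30). In all nuclei above the limit the levels were 47.4 and 151 CPM, and the gene was also past 2-fold higher in the other 3 classes in which it was compared, at log2 ratios of 2.31 in adipocyte-like, 1.56 in endothelial-like and 1.61 in epithelial-like nuclei. Its level in C was 759 CPM. Also higher were Fmod, encoding fibromodulin, at 30.8 and 103 CPM (1.75), the imprinted non-coding Rian at 73.7 and 205 CPM (1.47) and Cacnb2, a calcium-channel subunit, at 185 and 443 CPM (1.26). Besides Cdk8, Hmcn1, encoding hemicentin, was lower at 136 and 55.6 CPM (-1.29), Unc13c, a regulator of vesicle release, at 71.5 and 25.8 CPM (-1.47) and Tgfb3, a TGF-β ligand, at 78.1 and 31.8 CPM (-1.30, -2.18 to -0.50).

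For epithelial nuclei, genes were compared in the largest cluster alone (467 CC and 333 CCC nuclei), since 1 of the smaller ones held 59 nuclei of CCC and 0 of 3898 of CC. Another smaller one held 34 CC and 44 CCC nuclei. In the cluster compared, the epithelial markers summed to 805 CPM in CC and 1199 CPM in CCC, beside 2829 and 839 CPM for adipocyte markers. The 14 genes of epididymal luminal proteins summed to 17.8 and 10.3 CPM there, and 0 had enough UMIs to be compared. The part of these marker sums in the values below was not tested. Of 6565 genes compared, 205 (3.12%) were higher and 428 (6.52%) lower in CCC. Without correction for library the counts were 12 and 61, and with every named epithelial cluster 626 genes were higher. Sim1, a transcription factor of kidney and hypothalamic development, stood at 37.2 and 212 CPM (2.51, 2.06 to 2.99), and at 242 CPM in C, so that CC was the low library. Higher too were Sorbs2os, an antisense transcript, at 11.2 and 68.7 CPM (2.62), Flrt1, an adhesion protein, at 11.2 and 58.4 CPM (2.39) and the hyaluronidase gene Hyal1 at 34.95 and 134 CPM (1.94). Lower were Ly6a, a surface antigen, at 55.0 and 11.3 CPM (-2.29), Arxes2, a gene of the adipocyte programme with a near-identical copy, at 39.4 and 8.20 CPM (-2.26) and the esterase gene Bche at 112 and 46.1 CPM (-1.27). All 6 adipokines and 7 of 8 lipolysis genes compared were lower, beside the adipocyte marker sums given above.

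A second pair of libraries of the same ages, HHC and HC, shared no library with the chow pair and carried the same set number in the labels. In it, age and the length of the earlier HFD cannot be told apart. Of the adipocyte genes over 2-fold higher in CCC, 433 could be compared in this pair, and 397 of them (91.7%) were higher in HHC than in HC, against 65.8% of all 7985 genes compared in both pairs. Of those over 2-fold lower in CCC, 39 of 55 (70.9%) were lower in HHC, against 34.2% of all genes. The clusters were filled unequally here too, with 34 of 817 HC and 235 of 513 HHC nuclei in the second. In HHC adipocyte-like nuclei the macrophage markers summed to 910 CPM against 384 in HC, the B cell markers to 549 against 117 CPM, the translation list to 1272 against 413 CPM and the adipocyte markers to 7489 against 9111 CPM, and the part of these in the counts was not tested. The 10 adipocyte genes named above took the same direction in HHC over HC, and 4 of the 5 higher and 2 of the 5 lower were past 2-fold there.

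Trdn stood at 7.43 CPM in HC and 29.6 CPM in HHC adipocyte-like nuclei, an excess smaller than that of the chow pair, and Cyp2e1 at 460 and 77.7 CPM. Within the first cluster alone they stood at 7.73 and 38.6 CPM (2.32, 1.61 to 3.07) and at 464 and 80.8 CPM (-2.52, -2.81 to -2.24). Angpt1 stood at 514 and 389 CPM, a difference of -0.40 on the log2 scale against -2.11 in chow. Within the first cluster its log2 ratio was -0.12 (-0.25 to 0.013) and that of Ces1f -0.45 (-0.95 to 0.030), intervals that span 0. Every other adipocyte gene named above kept its direction there, with an interval clear of 0. Wdr17 in mesothelial-like nuclei stood at 952 and 4404 CPM, a log2 ratio of 2.21 beside 2.13, and H2-T23 in endothelial-like nuclei at 18.9 and 121 CPM, 2.67 beside 2.38. Other named genes took the opposite direction past 2-fold, namely Hmcn1 (1.18) and Unc13c (1.40) in mesothelial-like, Sntg1 (1.17) in progenitor-like and Calr (1.27) in macrophage-like nuclei. Of the genes named as lower in CCC, 1 of 4 in mesothelial-like and 2 of 6 in progenitor-like nuclei kept their direction. In progenitor-like nuclei as a whole, 273 of 380 genes lower in CCC (71.8%) were lower in HHC, against 37.6% of all genes. Of the higher ones, 117 of 129 (90.7%) were higher in HHC, against 62.4% of all genes. In mesothelial-like nuclei as a whole, 31 of 55 genes higher in CCC (56.4%) were higher in HHC, against 57.6% of all genes, and 25 of 40 lower genes (62.5%) were lower, against 42.4%. In endothelial-like nuclei 285 of 352 higher genes (81.0%) were higher in HHC, against 61.6% of all genes. Of the lower ones, 61 of 68 (89.7%) were lower, against 38.4%. The part of other classes' markers in the progenitor-like and endothelial-like counts was not tested. In macrophage-like nuclei 76 of 84 genes higher in CCC (90.5%) were higher in HHC, against 54.6% of all genes. There 346 of 406 genes lower in CCC (85.2%) were lower in HHC, against 45.4% of all genes. The 4 genes named as lower were, however, all higher in HHC than in HC. From HC to HHC these nuclei went from 635 to 492 CPM in adipocyte, 231 to 146 in endothelial and 271 to 72.9 in smooth muscle or pericyte markers. Progenitor markers went from 318 to 388 CPM and B cell markers from 290 to 557 CPM. The part of these sums in the counts was not tested. The class shares ran parallel in some classes only. Adipocyte-like nuclei differed by -9.64 points between HC and HHC, macrophage-like nuclei by 8.32 points and progenitor-like nuclei by 1.75 points. Endothelial-like and smooth muscle or pericyte-like nuclei also took the other sign, at -2.24 and -3.06 points. Mesothelial-like nuclei differed by -0.995 points (-1.79 to -0.22) beside -3.36 in chow, epithelial-like nuclei by -3.19 beside -1.96 and B cell-like nuclei by 1.37 beside 0.51. Since both pairs came from 1 set of libraries, handling that followed age within the set cannot be told apart from age. Above the UMI limit Gm42418 went from 68291 to 27027 CPM (CC to CCC) and from 53380 to 13629 CPM (HC to HHC). The translation list went from 1002 to 1358 and from 740 to 1440 CPM. Low-count nuclei went from 2.72% to 27.3% and from 4.06% to 11.8%. The part of these in the shared directions was not tested.

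**Figure D5:**
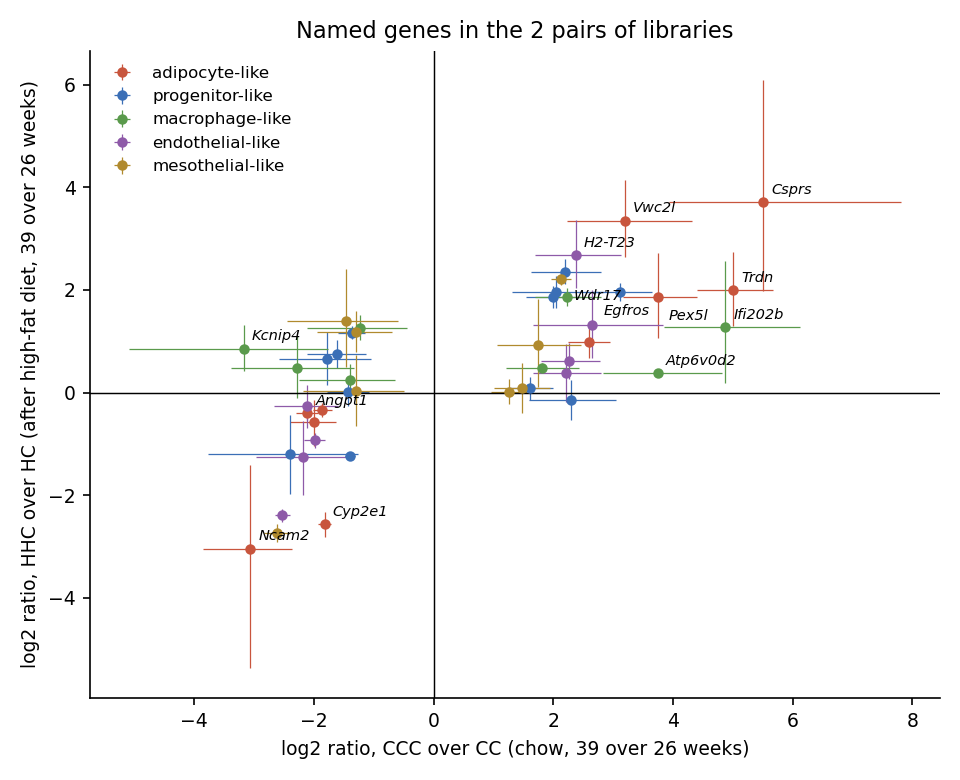
Log2 ratio of CPM, CCC over CC (x axis), against HHC over HC (y axis), of the named genes of 5 classes, with 95% counting intervals. Trdn, Wdr17 and H2-T23 lie in the upper right and Ncam2 and Cyp2e1 in the lower left, while Kcnip4 of macrophage-like nuclei was lower in CCC and not in HHC.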

How the data were processed

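The authors aligned reads with Cell Ranger 6.1.2, introns included, to the mouse mm10 reference, and deposited whole-number UMI counts per gene and barcode. Per the study's methods they analysed them in Seurat 4.1.0 after doublet removal, and their estimate of free RNA led to no correction. Barcodes with 500 to 3000 genes and at most 40000 UMIs were kept. Doublets were scored by simulation; the automatic threshold marked 0.104% of CCC and 0.121% of CC, under 0.5%, so the highest-scoring 0.8% per 1000 nuclei were removed instead (266 and 137 nuclei). CCC and CC shared 6 barcodes by sequence. The UMI limit of 1220 was the shallow trough of the smoothed distribution in CCC. Nuclei of 5 libraries were normalised, reduced to 30 principal components of 2000 genes, corrected for library in the manner of Harmony, and clustered with the Leiden method at resolution 1 (Python 3.11.15, scanpy 1.11.5, leidenalg 0.10.2). Of 30 clusters, 27 were named from at least 3 detected markers. The check of names against low-count nuclei, and the use of the largest epithelial cluster alone, were chosen after seeing the data.

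UMIs were summed per class and library. A gene was compared where at least 25 UMIs were expected in each library at equal CPM. Log2 ratios have exact conditional intervals, CPM exact Poisson intervals and shares Clopper-Pearson intervals (scipy 1.17.1). The floor was 3 counts per library. TMM factors came from edgeR 4.0.16, with no test. Named genes were the 6 highest and 6 lowest (4 and 4 outside adipocytes and progenitors) by the interval bound nearest 0 among genes past 2-fold, leaving out Gm and Rik models and genes with a lower level in the class than over all nuclei, and, in each list, the extreme members and those whose role a sentence needs. In adipocyte-like nuclei 2 genes are not reported here, and 10 are given. Gene lists, members and comparison were chosen with earlier results of these data known. Replicates were absent, 1 library per group. Scripts were tested on simulated data. Of 32285 genes in the files, 32235 matched the annotation used for coordinates.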

Additional observations from a re-analysis of the deposited data

Results flagged for a closer look

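Genes of the lists and genes named by rule were set aside where they were past 2-fold in opposite directions in different classes of the same comparison, CCC over CC. The difference between the classes was not tested. C1s1, a protease of the complement pathway, had a log2 ratio of 1.10 in endothelial-like and -1.25 in macrophage-like nuclei. C3, the central complement component, had 1.10 in endothelial-like and -1.73 in epithelial-like nuclei. Col3a1, a fibrillar collagen chain, had 1.03 in endothelial-like and -1.14 in epithelial-like nuclei. Dcn, the proteoglycan decorin, had 1.27 in endothelial-like and -1.29 in epithelial-like nuclei. Among genes named by rule, Cacnb2 had 1.26 in mesothelial-like and -1.10 in progenitor-like nuclei, Calr 1.01 in endothelial-like and -1.23 in macrophage-like nuclei, Kcnip4 1.44 in adipocyte-like and -3.17 in macrophage-like nuclei, and Ly6a 1.19 in endothelial-like and -2.29 in epithelial-like nuclei. With TMM scaling the endothelial values of C1s1 and C3 (0.89 each), Col3a1 (0.81), Calr (0.79) and Ly6a (0.97) were within 2-fold, while Cacnb2, Dcn and Kcnip4 stayed past it in both classes. Progenitor markers, of which Dcn is 1, summed to 945 CPM in CC and 1907 CPM in CCC endothelial-like nuclei, to 734 and 600 CPM in the epithelial cluster compared, and to 553 and 305 CPM in macrophage-like nuclei. Their part in the values of the list genes was not tested.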

How the results depend on the processing

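No paired analysis was possible because each group had 1 library, and for the same reason no replicate could be left out. The limit of precision is the count of UMIs per class, and the intervals hold no spread between mice. Settings that leave out clusters, the check of names or rows over ribosomal RNA sequence were chosen after seeing the data. Of 54 gene values named by rule, 38 stayed past 2-fold in the same direction under every alternative. Of 43 further genes from the lists, 23 stayed on their side of 2-fold and 5 took the other sign at least once. Where a value moved, the cause was not tested unless the setting itself compares fewer or more genes.

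Among genes named by rule and class shares, called signs turned as follows. Calr in macrophage-like nuclei stood at 0.051 with names unchecked, and Hhip in progenitor-like nuclei at 0.33 with no UMI limit. Vwa3a and Nr5a2 in endothelial-like nuclei stood at 0.37 and 0.84 at resolution 0.5 and without the largest endothelial cluster, settings that gave the same values. The epithelial share, at -1.96 points, was 3.81 at a limit of 2500 UMIs, 8.58 with names unchecked and 0.24 with no upper limit on genes, and moved to -4.70 without correction for library and -3.94 with CCC and CC alone. The endothelial share, at 6.96 points, was -2.65 without correction for library, 2.61 with CCC and CC alone, 1.98 at resolution 0.5, 3.61 with no upper limit on genes, 5.26 at 2500 UMIs and 5.47 with no UMI limit.

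Other shares moved without a change of a called sign. The adipocyte share, at -0.28 points, was 15.6 without correction for library, -5.57 with CCC and CC alone and -2.36 with no UMI limit. The progenitor share was -9.18 with no UMI limit. At 2500 UMIs the macrophage share was -6.30, the lymphatic endothelial share -0.36, the T or NK cell share -0.14 and the smooth muscle or pericyte share 0.71. The last was 0.28 without correction for library, 1.23 with no upper limit on genes and 2.79 with no UMI limit. The share of nuclei under the UMI limit, at 24.6 points, was 18.3 at a limit of 1000.

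Counts of genes past 2-fold depended on scaling and filter, given here as higher and lower. With TMM scaling they were 428 and 166 in adipocyte-like, 199 and 146 in endothelial-like and 25 and 90 in mesothelial-like nuclei, with 125 higher in epithelial-like and 55 higher in macrophage-like nuclei. With median ratio scaling they were 252 and 113 in endothelial-like nuclei, with 129 higher in epithelial-like, 48 higher in macrophage-like and 130 lower in adipocyte-like nuclei. At 10 expected UMIs they were 1231 and 171 in adipocyte-like, 384 and 720 in progenitor-like, 265 and 855 in macrophage-like, 1057 and 119 in endothelial-like, 239 and 175 in mesothelial-like and 572 and 828 in epithelial-like nuclei. At 100 expected UMIs they were 183 and 42, 20 and 148, 14 and 115, 80 and 36, 8 and 20, and 32 and 135 in the same order.

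In adipocyte-like nuclei, 1687 genes were higher without correction for library, 207 lower with no upper limit on genes, 344 higher and 129 lower with CCC and CC alone, and 383 higher without the low-count cluster. In endothelial-like nuclei the counts were 78 and 116 without correction for library, 106 and 35 at resolution 0.5 and without the largest cluster, and 115 lower at 2500 UMIs. In macrophage-like nuclei they were 34 and 207 at 2500 UMIs, with 238 lower when names were unchecked, and in mesothelial-like nuclei 37 were higher at 2500 UMIs. In epithelial-like nuclei they were 12 and 61 without correction for library, with 626 higher when every named cluster was used.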
